A study of Mus musculus with 2 samples.

Results

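A set of 10 long noncoding RNAs was followed in naive T cells. Of these, 8 are snoRNA host RNAs (Gas5, Snhg1, Snhg3, Snhg5, Snhg6, Snhg7, Snhg8 and Snhg12) and 2 are the nuclear RNAs Malat1 and Neat1. They were chosen by symbol, and all 10 were found, each on 1 row, among the 23167 symbols of each library. The data are 1 library of naive CD4 T cells and 1 library of naive CD8 T cells, each from total RNA depleted of ribosomal RNA. Both cell types came from the spleen and lymph nodes of Foxp3-GFP mice on a C57/BL6 background and were sorted for high CD62L and low CD44 without CD25 or GFP, so regulatory T cells marked by the reporter were left out of both. The labels give no age, no treatment and no number of animals behind a library. With 1 library per cell type there is no replicate check on any difference below, no test and no p-value.

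Small nucleolar RNAs guide the methylation and pseudouridylation of ribosomal RNA. Most mammalian ones lie in introns and are trimmed out of the intron after splicing, and in an Snhg gene the joined exons left over make a host RNA with little or no coding role. Several host RNAs, Gas5 among them, begin with the pyrimidine-rich 5′ end (5′ TOP) that also opens the mRNAs of ribosomal proteins, and are degraded by nonsense-mediated decay when they are translated, so that Gas5 accumulates in cells whose growth has stopped. Malat1 stays in the nucleus at the speckles that store splicing factors, and its 3′ end is cut by RNase P. Neat1 is the RNA core of paraspeckles, nuclear bodies that hold RNA-binding proteins.

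The starts of the host genes are shown because the same elements recur across host genes whose levels did not compare alike between the libraries. The RefSeq promoter table (GRCm38.p6) held 8 of the 10 genes, and Neat1 and Snhg6 were not looked up elsewhere. The sense strand of each start is printed from 60 bases before the annotated start to 40 from it. Capitals mark the letters TATA within 40 to 16 bases before the start, and a C followed by at least 5 more pyrimidines that begins within 20 bases of the start. Of the genes not printed, Neat1 lies on chromosome 19, Snhg6 on chromosome 1 and Snhg3 on chromosome 4, all on the minus strand. RefSeq lists an upstream start of Gas5 as well, which held neither element on the sense strand.
Gas5, chr1:161035106-161035205, plus strand: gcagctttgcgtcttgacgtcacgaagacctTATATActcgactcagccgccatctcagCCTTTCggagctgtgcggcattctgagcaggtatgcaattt
Snhg7, chr2:26640205-26640304, minus strand: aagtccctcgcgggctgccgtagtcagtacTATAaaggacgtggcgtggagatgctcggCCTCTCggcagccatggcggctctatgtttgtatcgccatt
Snhg8, chr3:123508297-123508396, minus strand: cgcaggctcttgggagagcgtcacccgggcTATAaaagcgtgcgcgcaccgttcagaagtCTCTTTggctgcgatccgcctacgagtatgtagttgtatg
Snhg12, chr4:132308618-132308717, plus strand: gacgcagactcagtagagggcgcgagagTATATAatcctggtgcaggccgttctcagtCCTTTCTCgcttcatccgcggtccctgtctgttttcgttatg
Snhg1, chr19:8723427-8723526, plus strand: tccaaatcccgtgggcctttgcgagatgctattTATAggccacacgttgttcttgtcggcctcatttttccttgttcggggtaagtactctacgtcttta
Snhg5, chr9:88522858-88522957, minus strand: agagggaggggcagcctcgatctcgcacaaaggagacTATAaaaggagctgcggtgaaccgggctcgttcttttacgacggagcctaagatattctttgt
Malat1, chr19:5802633-5802732, minus strand: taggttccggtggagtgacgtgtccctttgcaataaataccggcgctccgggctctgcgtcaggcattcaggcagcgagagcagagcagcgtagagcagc
The letters TATA, which read the same on both strands, stood at this distance in 6 of the 7 host genes in the table, against 5.91% of 32851 RefSeq promoters. Of these 6, Gas5, Snhg7, Snhg8 and Snhg12 also had the pyrimidine tract, which 31.4% of promoters had on the sense strand and 35.2% on the other strand. Both elements together were in 1.98% of promoters. Snhg3 and Malat1 had neither in these windows. Snhg1 and Snhg5 had the TATA letters without such a tract. These are matches of letters and not sites shown to be used.

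RPKM, the reads of a gene scaled to its length and to the reads of its library, was the authors' unit, and levels of different genes are compared on it because it is per length. Gas5 was the highest of the 10 in both libraries, at 2862 RPKM in CD4 cells against 4931 in CD8 cells. It ranked 8 of 13605 symbols above 0 in CD4 and 8 of 13482 in CD8. Malat1 came next, at 2186 RPKM in CD4 cells (rank 22) against 1548 in CD8 cells (rank 63). Malat1 had 1.53% of the CD4 total (95% exact binomial interval 1.52 to 1.53) and 1.08% of the CD8 total (1.08 to 1.08). Gas5 had at least 0.243% of the CD4 total (0.241 to 0.245) and at least 0.419% of the CD8 total (0.417 to 0.422).

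**Figure D1:**
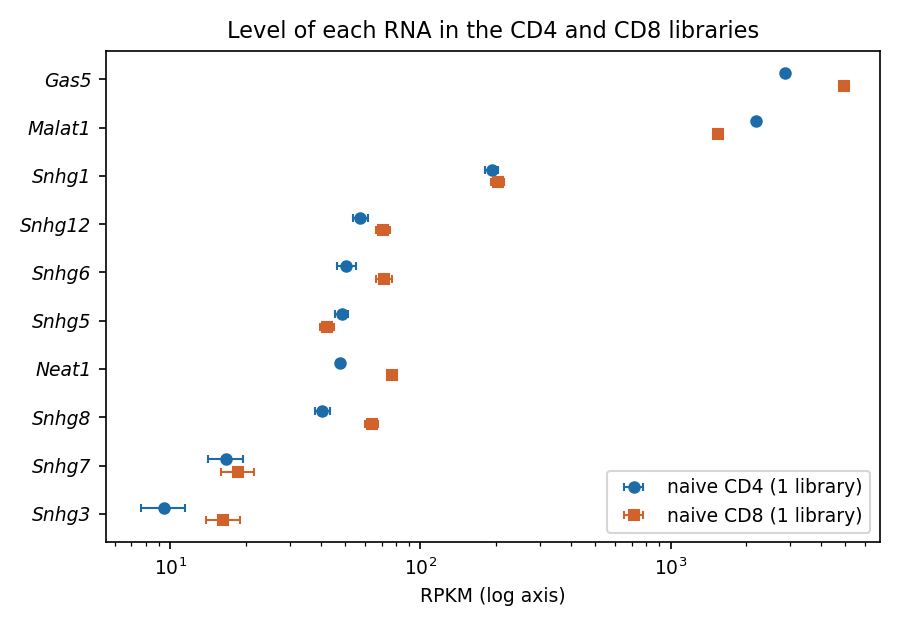
RPKM of each RNA (log axis) in the naive CD4 library (circles) and the naive CD8 library (squares), 1 library each, with 95% counting intervals that are narrower than the symbol for Gas5, Malat1 and Neat1. Gas5 and Malat1 stand between 1548 and 4931 RPKM, and the other 8 RNAs between 9.41 and 204 RPKM.

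Snhg1, whose introns carry box C/D snoRNAs, was the third in both libraries, at 193 RPKM in CD4 cells against 204 in CD8 cells. In CD4 it was followed by Snhg12 at 57.5, Snhg6 at 50.6, Snhg5 at 48.5 and Neat1 at 47.9 RPKM. Neighbours among these 4 overlapped within their counting intervals, so their order was not resolved at this depth, although the interval of Snhg12 lay above those of Snhg5 and Neat1. In CD8 the next were Neat1 at 76.8, Snhg6 at 71.8, Snhg12 at 71.0 and Snhg8 at 63.9 RPKM, again with neighbours overlapping. Snhg8 stood at 40.6 RPKM in CD4, below the interval of Neat1, and Snhg5 at 42.3 RPKM in CD8. Snhg7 and Snhg3 were the lowest of the 10. Their intervals stayed apart in CD4, at 16.6 RPKM for Snhg7 and 9.41 RPKM for Snhg3, and overlapped in CD8, at 18.6 RPKM for Snhg7 and 16.3 RPKM for Snhg3.

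The comparison of naive CD4 with naive CD8 cells asked how far these RNAs differ between the resting helper and cytotoxic lineages. Of the 8 host RNAs 7 read lower in CD4 than in CD8 and 1, Snhg5, read higher, and none of the 10 RNAs differed by 2-fold. The size rule was an absolute log2((CD4 RPKM + 1)/(CD8 RPKM + 1)) of at least 1, and 5.48% of the 10228 genes with 1 RPKM or more in at least 1 library passed it, 2.41% higher in CD4 and 3.07% higher in CD8. On this scale the 8 host RNAs had a median difference of -0.40 and ranged from -0.78 for Gas5 to 0.19 for Snhg5, beside a median of 0.08 over all compared genes. All 10 RNAs also had a median of -0.40. At 1.5-fold, a bound chosen after the values were seen, 4 of the 10 were higher in CD8 (Gas5, Snhg3, Neat1 and Snhg8) and 0 were higher in CD4, where 7.47% and 8.07% of all compared genes passed.

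Folds of single genes are given as plain RPKM ratios with no pseudocount. Their exact 95% interval comes from how a gene's reads divide between the libraries, and it covers counting error only and compares the libraries, not the cell types. Gas5, host of box C/D snoRNAs and known as a decoy of the glucocorticoid receptor, was 1.72-fold higher in CD8 (1.71 to 1.74), from at least 60183 reads in CD4 and at least 99979 in CD8. Only 4.71% of compared genes had a lower log2 difference. Snhg3, which carries Snora73a and Snora73b, had the same fold within counting error, at 1.74-fold higher in CD8 (1.35 to 2.24), but from 101 reads in CD4 and 169 in CD8.

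Snhg8, whose annotated span holds Snora24, was 1.57-fold higher in CD8 (1.44 to 1.73), and Snhg6, host of Snord87, was 1.42-fold higher in CD8 (1.26 to 1.59). Snhg12, host of Snora16a, Snora44, Snora61 and Snord99, was 1.23-fold higher in CD8 (1.13 to 1.35). For these 3 genes, as for Gas5 and Snhg3, the intervals of both libraries' levels stayed apart. Snhg7, host of Snora17 and Snora43, was not distinguishable between the libraries at its fewest reads (1.12-fold higher in CD8, 0.892 to 1.40). Its true reads may be a multiple of these. For Snhg1, at 1.06-fold higher in CD8, the interval of 0.973 to 1.15 rests on the fewest reads that fit its values, and it would be narrower if its reads are a multiple of these. Snhg5, host of Snord50a and Snord50b, was 1.15-fold higher in CD4 (1.05 to 1.25), from 1205 reads in CD4 and 1014 in CD8.

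**Figure D2:**
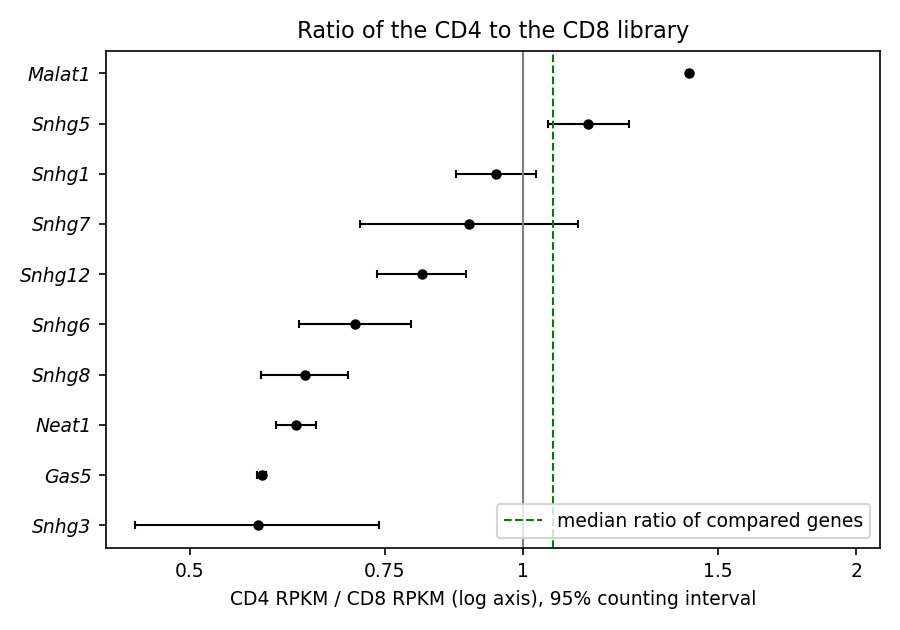
CD4 RPKM over CD8 RPKM for each RNA (log axis, 1 library per cell type), with 95% counting intervals, a solid line at 1 and a dashed line at 1.06, the median ratio of compared genes above 0 in both libraries. Malat1 and Snhg5 lie above 1, the intervals of Snhg1 and Snhg7 (at their fewest reads) span 1, and the other 6 RNAs lie below it.

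The 2 nuclear body RNAs went opposite ways. Malat1 was 1.41-fold higher in CD4 (1.40 to 1.42), from 377555 reads in CD4 and 257811 in CD8, and 88.5% of compared genes had a lower log2 difference. Neat1 was 1.60-fold higher in CD8 (1.54 to 1.67), from 3764 reads in CD4 and 5819 in CD8, and 5.92% of compared genes had a lower log2 difference. Malat1 therefore exceeded Neat1 45.6 times per length in CD4 and 20.2 times in CD8, a ratio that no scaling of the libraries can change. Likewise Malat1 was at 0.764 of the Gas5 level in CD4 and at 0.314 of it in CD8. The length behind the Neat1 value was 3176 bases within a RefSeq span of 20773 bases, so the value is that of a stretch the size of the short form, and the rest of the long form that builds paraspeckles was not analysed here.

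**Figure D3:**
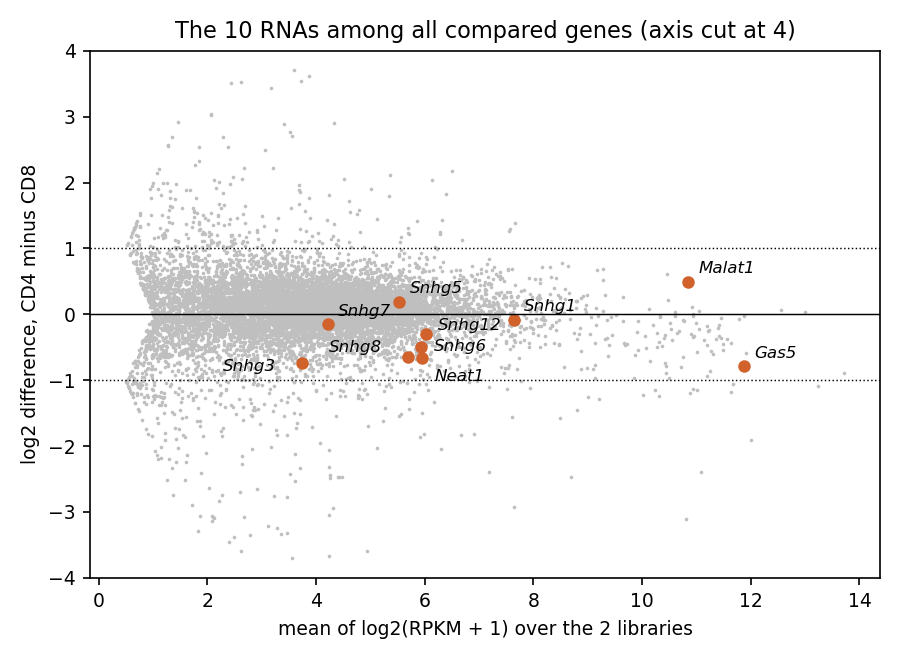
log2 difference, CD4 minus CD8, against the mean of log2(RPKM + 1) over both libraries for all compared genes (grey) and the 10 RNAs (orange), with dotted lines at the 2-fold bounds and the vertical axis ending at 4 and -4. All 10 RNAs lie between the dotted lines, with Malat1 at 0.50 and Gas5 at -0.78 at the high end of expression.

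Over the other compared genes the direction went along with gene length. For some of the 10 RNAs it changed with the scaling, and the libraries differed in ribosomal RNA. Other compared genes counted over less than 1000 bases, small noncoding RNAs left out, had a median log2 difference of -0.18 (n = 872), and those of 1000 bases or more had 0.10 (n = 9197). Among the shorter genes 67.5% had a log2 difference below 0 and 19.7% passed 1.5-fold toward CD8, against 40.5% and 7.47% of all compared genes. Among the 10 RNAs 8 were below 0. The smallest lengths that fit the values of Malat1 (6981 bases), Neat1 (3176) and Snhg5 (1005) exceeded 1000 bases, and those of the other 7 host RNAs did not. Of these longer RNAs Malat1 and Snhg5 were above 0, but Neat1 was at -0.67. The lengths of Gas5, Snhg1, Snhg6 and Snhg7 may be multiples of the smallest. The other compared genes were instead split by the fitting length nearest to a GENCODE transcript, so the measure of length is not the same for both. Rn45s, the ribosomal RNA precursor, was at 612 RPKM in CD4 cells against 5277 in CD8 cells, at least 0.357% of the CD4 total and 3.08% of the CD8 total. Rescaling each library to the same RPKM sum moved the median of all genes by 0.21, and the genes higher in CD4 made up 64.9% of those past the size rule instead of 44.0%. After it Snhg1 and Snhg7 read higher in CD4, at log2 differences of 0.13 and 0.05, 0 RNAs were 1.5-fold higher in CD8, and 1, Malat1 at 0.71, was 1.5-fold higher in CD4. Snhg12 was then at -0.09 instead of -0.30, Snhg6 at -0.29 instead of -0.49 and Snhg5 at 0.40 instead of 0.19. Set against the median of all genes, 8 of the 10 RNAs were lower under that scaling as well, and their median lay 0.48 below it under both. A scaling moves the RNAs and that median alike, so this could hardly differ and adds no support. With Rn45s left out of the totals, the median of the 10 was -0.44 instead of -0.40 and Gas5 was at -0.82 instead of -0.78. The median of the 10 then lay 0.48 below that of all genes as well, for the same reason. Beyond this, the part of length and of ribosomal RNA in these differences was not tested.

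Genes of the 5′ TOP class and of the snoRNP, the protein shell of snoRNAs, also read lower in CD4 at the deposited scaling. Their medians were nearer to 0 or above it under the rescaling. The median of all compared genes moved alike, from 0.08 to 0.29, and the medians of these lists lay below it under both. None of these lists gives support of its own, since they were chosen with earlier results of these data known. Ribosomal protein genes had a median log2 difference of -0.37, with 76 of 80 compared genes below 0, and a median of -0.16 with both libraries rescaled to the same RPKM sum. Of all compared genes 40.5% were below 0, and of the other genes counted over less than 1000 bases 67.5% were. The part of gene length in these lists was not tested. Of the 80 ribosomal protein genes, 8 passed the size rule toward CD8 and 0 toward CD4, where 3.07% and 2.41% of all compared genes passed. Rps26, of the small subunit, was at 269.99 RPKM in CD4 cells against 740 in CD8 cells (2.74-fold higher in CD8, 2.63 to 2.86), while Rpl12, of the large subunit, was at 3735 RPKM in CD4 cells against 3798 in CD8 cells. The 18 other 5′ TOP translation genes had a median of -0.19, with 15 below 0 and 0 past the size rule, and under that rescaling their median was 0.02. Fau, a ribosomal protein fusion gene, was at 751 RPKM in CD4 cells against 1150 in CD8 cells (1.53-fold higher in CD8), and Eef1a1, the main elongation factor, was at 8248 RPKM in CD4 cells against 8094 in CD8 cells.

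The median of 18 snoRNP core and assembly genes was -0.24, with 14 below 0 and 0 at the 2-fold bound, and it was -0.05 under that rescaling. Below 0 were 40.5% of all compared genes. Nhp2, a core protein of H/ACA particles, was at 32.3 RPKM in CD4 cells against 47.7 in CD8 cells (1.48-fold higher in CD8, 1.30 to 1.69), and Nop10, of the same particles, was at 82.8 RPKM in CD4 cells against 113.4 in CD8 cells. Nop56, of the C/D particles, was nearly level, at 106.6 RPKM in CD4 cells against 113.1 in CD8 cells. Naf1, an assembly factor, was at 0.447 RPKM in CD4 cells against 1.31 in CD8 cells, both low.

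The factors that act on these RNAs stayed nearer to the median gene. Over all compared genes, 6083 of 10228 were above 0, with a median of 0.08. Of 16 genes of nonsense-mediated decay 12 were above 0, with a median of 0.08 and 0 past the size rule. Magoh and Rbm8a, which form a pair in the exon junction complex, differed most, with Magoh at 29.3 RPKM in CD4 cells against 50.5 in CD8 cells (1.72-fold higher in CD8, 1.53 to 1.94) and Rbm8a at 11.8 RPKM in CD4 cells against 18.7 in CD8 cells (1.59-fold, 1.45 to 1.75). Eif4a3, the helicase of that complex, was at 89.9 RPKM in CD4 cells against 85.1 in CD8 cells. Of 19 paraspeckle protein genes 13 were above 0, with a median of 0.10, and Hnrnph3 was the farthest from 0, at 12.98 RPKM in CD4 cells against 8.88 in CD8 cells (1.46-fold higher in CD4, 1.30 to 1.65). At the deposited scaling Neat1 thus differed by more than any of the 19, all of which were within 1.5-fold. Rescaled to the same RPKM sum, Neat1 was at -0.46 instead of -0.67. The paraspeckle genes were not listed singly there, but Hnrnph3 was level with Malat1 at the deposited scaling, both at 0.50. That rescaling took Malat1 to 0.71, so Neat1 would not exceed Hnrnph3 there. Of 19 nuclear speckle genes 15 were above 0, with a median of 0.18. With both libraries rescaled to the same RPKM sum, the medians were 0.29 for nonsense-mediated decay, 0.31 for paraspeckle genes and 0.39 for speckle genes. All compared genes had a median of 0.29 there. Srrm2, a speckle scaffold protein, was at 46.2 RPKM in CD4 cells against 33.2 in CD8 cells (1.39-fold higher in CD4, 1.35 to 1.44), a fold near that of Malat1, while Srsf5, the highest, was at 382 RPKM in CD4 cells against 352 in CD8 cells.

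**Figure D4:**
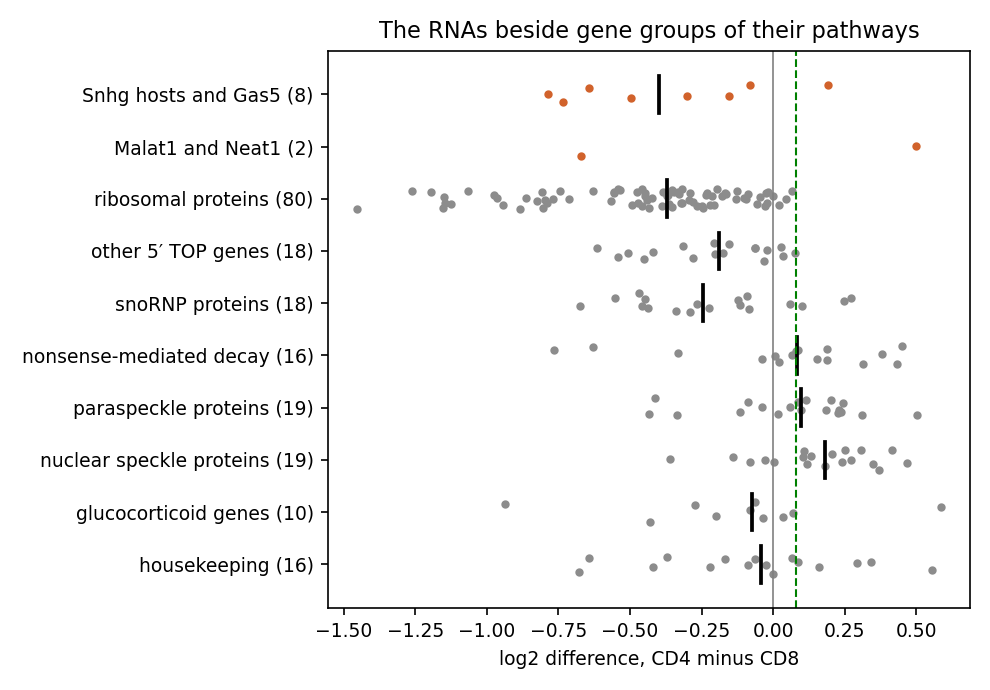
log2 difference, CD4 minus CD8, of the 8 snoRNA host RNAs, of Malat1 and Neat1 and of 8 gene groups, each point 1 gene, with the number of genes in brackets, black bars at group medians and a dashed line at 0.08, the median of all compared genes. The host RNAs (median -0.40) and ribosomal protein genes (median -0.37) have their medians left of 0, and the nuclear speckle genes (median 0.18) have theirs right of it.

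Of 10 genes of the glucocorticoid receptor and its targets 7 were below 0, with a median of -0.07 that became 0.14 under the same rescaling, and 0 were past the size rule. Nr3c1, the receptor to which Gas5 can bind, was at 22.8 RPKM in CD4 cells against 14.8 in CD8 cells (1.53-fold higher in CD4, 1.45 to 1.62). Its target Per1 was at 3.28 RPKM in CD4 cells against 7.19 in CD8 cells (2.19-fold higher in CD8 without the pseudocount, 1.94 to 2.49), and the target Tsc22d3 at 160 RPKM in CD4 cells against 163 in CD8 cells was nearly level. For scale, 16 housekeeping genes had a median of -0.04, with 7 above 0 and 9 below, and of 0.17 under that rescaling. Of all compared genes 40.5% were below 0, and their median was 0.29 under that rescaling.

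Among 13 other long noncoding and host RNAs above 1 RPKM, 8 were below 0, and 1 passed the size rule, against 40.5% and 5.48% of all compared genes. Their median of -0.17 became 0.02 under that rescaling (0.29 for all compared genes), -0.01 with small noncoding RNAs left out and -0.02 with no filter. Past the size rule was Rpph1, the RNA of RNase P, at 2115 RPKM in CD4 cells against 7947 in CD8 cells (3.76-fold higher in CD8, 3.60 to 3.92). Rmrp, the RNA of the related RNase MRP, was at 9844 RPKM in CD4 cells against 18321 in CD8 cells (1.86-fold higher in CD8, 1.84 to 1.88). The other snoRNA host genes of that list were named after their values were seen. Snhg9 was at 8.71 RPKM in CD4 cells against 16.4 in CD8 cells (1.89-fold higher in CD8, 1.26 to 2.87). Snhg4 was at 9.20 RPKM in CD4 cells against 10.5 in CD8 cells (1.14-fold, 0.961 to 1.35), and 1500012F01Rik, which RefSeq lists as Zfas1, was at 35.7 RPKM in CD4 cells against 43.2 in CD8 cells (1.21-fold higher in CD8, 1.09 to 1.35). Snhg10 and Snhg11 were near 1 RPKM or below in both libraries.

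The snoRNAs themselves could not be set beside their hosts. GENCODE M21 places 29 snoRNA symbols inside the 8 host genes on their strand, of which 1, Mir5117 inside Gas5, matched a row by symbol and was listed at 0 in both libraries. The length that fits Snhg8 is 784 bases and its RefSeq span is 785 bases, which matches counting over the whole span, Snora24 included, so reads of the host and of the snoRNA cannot be told apart there. In Snhg12 and Snhg3 the lengths fit spliced transcripts. Rcc1 overlaps Snhg3 on the same strand and was at 10.9 RPKM in CD4 cells against 9.68 in CD8 cells. Zbtb37 overlaps Gas5 on the other strand and was at 11.4 RPKM in CD4 cells against 7.06 in CD8 cells (1.61-fold higher in CD4, 1.46 to 1.78). Both leaned the other way from the host RNA they overlap, Rcc1 no farther than the median gene within counting error. As the strand setting is not given, the share of reads between these genes and the host RNAs is uncertain.

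The genes nearest to the 3 highest RNAs were found by Euclidean distance of log2(RPKM + 1) over both libraries, which with 2 libraries is a match of level only. Scarna10 (3121 RPKM in CD4 and 4699 in CD8) and Rplp1 (2269 RPKM in CD4 and 4747 in CD8) were nearest to Gas5, at distances of 0.14 and 0.34. Nearest to Malat1 were H2-K1 (2007 RPKM in CD4 and 1866 in CD8) at 0.30 and Rpl3 (1949.6 RPKM in CD4 and 1949 in CD8) at 0.37. Snhg1 lay closest to Cct2 at 0.04 and to Rnf167 at 0.08.

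The identity of the libraries was checked on marker genes. Cd4 was at 305 RPKM in CD4 cells against 8.89 in CD8 cells, and Cd8a at 2.50 RPKM in CD4 cells against 518 in CD8 cells, while the shared T cell genes Cd3g (1.03-fold higher in CD8), Lck (1.07-fold higher in CD4) and Cd3d (1.23-fold higher in CD8) were all within 1.5-fold. The 6 NK cell markers summed to 45.0 RPKM in CD4 cells against 178.7 in CD8 cells. All 5 that were compared read higher in CD8, and 4 of these passed the size rule. Most of the CD8 sum was Klrd1, with 105.5 RPKM there against 7.85 in CD4 cells. Ncr1, below the filter, went the other way, with 0.111 RPKM in CD4 cells and a listed 0 in CD8. The 7 B cell markers summed to 3.45 RPKM in CD4 cells against 30.4 in CD8 cells, of which Cd79b was 2.14 in CD4 and 28.8 in CD8, and Blnk and Ebf1 were listed at 0 in CD4. The 8 myeloid markers summed to 6.31 RPKM in CD4 cells against 8.64 in CD8 cells with Cd14 listed at 0 in both. The erythroid genes Hba-a1 and Hbb-b1 were listed at 0 in both as well. Beta-s, a beta-globin symbol outside the marker list, had a mean log2(RPKM + 1) of 1.85 over both libraries. It was 0.83 higher in CD4 on the log2 scale, so the 0 values do not show that globin RNA was absent. Of the 4 stromal and endothelial markers, which summed to 105.4 RPKM in CD4 cells against 52.5 in CD8 cells, nearly all was Pecam1, and Col1a2 was listed at 0 in both. The part of other cells in the differences above was not tested, and in such bulk libraries fewer cells that hold an RNA and less of it per cell cannot be told apart.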

How the data were processed

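Total RNA depleted of ribosomal RNA was sequenced from 1 naive CD4 and 1 naive CD8 library with a low-input SOLiD whole transcriptome preparation, per the labels' protocols. The deposited values are RPKM, made by the authors. The submitters' processing notes name TopHat, HTSeq and mm9. Which annotation and strand setting went with them is not given in the sources used here. A symbol on several rows had the same value on each and was counted once. The members and gene lists were chosen with earlier results of these data known.

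The RPKM could be turned back into whole reads. The ratio of the library totals came from low genes with equal reads, and their size from annotated lengths: 24741945 reads in the CD4 library and 23853921 in the CD8 library. With these totals 12733 of 12735 genes detected in both came out as whole reads to the precision printed. The lengths are best met by GENCODE M21 transcripts less 1 base per exon, at 1476 of 10003 genes against 72 at the full length. The totals were themselves set on these shortened lengths, so this count favours them and is no separate check. A common multiple of reads and length cannot be read from RPKM, so the fewest reads were used, which gives the widest intervals; at the median over compared genes these were 792 for CD4 and 733 for CD8. For Snhg1 these are 1112 and 1134 reads over 233 bases, which is shorter than every GENCODE M21 transcript of the gene, so its true reads are probably a multiple. Ratios between libraries do not depend on this.

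Differences are log2((CD4 RPKM + 1)/(CD8 RPKM + 1)), CD4 minus CD8, with a pseudocount of 1 RPKM that shrinks differences between low values. The comparison took genes that reached 1 RPKM in either library. Intervals are exact (Clopper-Pearson for folds and shares, Poisson for levels), at 95%, and cover counting error only, as reads without molecular identifiers are not independent molecules. The text names all 10 members, of each list the 2 highest, the 2 most different and up to 4 past the size rule, not all of which are described, and the 2 nearest genes of the 3 highest members. The recovery and the intervals were tested on simulated data, in which every length was that of a transcript less 1 base per exon. Python 3.11.15, numpy 2.4.6, scipy 1.17.1 and matplotlib 3.10.9 were used. Alternatives were pseudocounts of 0.1 and 5, no filter, a filter of 5 RPKM, 3 other scalings and small noncoding RNAs left out; Rn45s left out of the totals was added after seeing the data.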

Additional observations from a re-analysis of the deposited data

How the results depend on the processing

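None of the 10 RNAs was 2-fold apart under any of the 9 alternatives tried. The median log2 difference of the 10 moved from -0.40 to -0.19 with each library rescaled to an RPKM sum of 1000000 and stayed between -0.48 and -0.37 under the other 8. Under that rescaling 5 genes of the lists passed the size rule instead of 9, and Snhg1 and Snhg7 changed sign. The other 8 RNAs kept their sign under all 9, and under each of the 9 the same number, 8 of 10, lay below the median of all genes. A scaling moves the RNAs and that median alike, so under the scalings this count could hardly change and adds no support. The counts past the size rule toward CD4 and toward CD8, 247 and 314 as reported, were 428 and 462 with a pseudocount of 0.1 RPKM, 73 and 125 with 5 RPKM, 152 and 208 with a filter of 5 RPKM, and 600 and 324 with that rescaling. No paired analysis was possible because there is 1 library per group, and for the same reason no library could be left out. Depth limits Snhg3 and Snhg7 most, at 169 reads or fewer in each library by the fewest reads that fit their values.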
